A study of Homo sapiens with 6 samples.

Results

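The 42 genes described here carry out homologous recombination and Fanconi anemia repair, together with the kinases and mediators that signal DNA damage. They were taken by symbol from a fixed list whose rule uses no measured value. That list was chosen with earlier results of these data known. All 42 were found among the 19792 genes of the deposited table. The cells were BT-549/tet-WDR5shRNA, that is, BT-549 human breast cancer cells of the triple-negative class (lacking estrogen and progesterone receptors and HER2 amplification) in which doxycycline (DOX) induces an shRNA against WDR5, a core subunit of H3K4 methyltransferase complexes. Libraries came from 3 vehicle cultures (0.1% DMSO) and 3 cultures given 500 ng/ml DOX, and cells of both groups carry the shRNA and puromycin resistance. No library of cells without the WDR5 shRNA was analysed here, and the labels do not say whether the cultures were independent. The paper states in general that its experiments had at least 3 independent biological replicates. The table has a single column of levels, the authors' mean normalized count over all 6 libraries, in which vehicle and DOX are pooled. Its other columns are the authors' own comparison of DOX with vehicle and were not used here. The effect of WDR5 silencing on these genes was therefore not analysed here, and what follows is their level over both groups, their positions and their promoters.

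Homologous recombination copies a broken DNA end from the sister chromatid. The end is sensed and cut back to a single strand, BRCA2 and its partners prepare that strand for pairing with the copy, and helicases and nucleases then resolve the joined molecules. The Fanconi anemia pathway opens DNA crosslinks at stalled replication forks and hands the break to the same machinery, with ubiquitylation of FANCD2 and FANCI as its central step. The pathway is known in breast cancer because inherited loss of BRCA1, BRCA2 or PALB2 predisposes to the disease.

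The deposited means sum to 26551206. Library depths are not known from this column, and it carries no replicate error, so small differences between genes cannot be ranked. Differences between genes are given per kb of the MANE Select transcript of GENCODE 44 on GRCh38, which each of the 42 genes has. The genes lie on 19 chromosomes, with no more than 5 on any of them (chromosomes 11 and 17). For example, BRCA1 lies at chr17:43044295-43170245 (minus strand), BRCA2 at chr13:32315086-32400268 (plus), ATM at chr11:108223044-108369102 (plus) and FANCD2 at chr3:10026370-10101932 (plus). As a check of the cell line, the mesenchymal markers VIM, FN1 and CDH2 had levels of 22183, 3631 and 1019 per kb, whereas ESR1 and PGR had authors' means of 0.79 and 0.80 and the epithelial marker EPCAM 1.30. ERBB2 (268 per kb) and the keratin gene KRT18 (308 per kb) were near the middle of all genes, the epithelial cadherin CDH1 was at 12.4 per kb, and the leukocyte gene PTPRC was at 8.34 per kb while CD3E had no row. WDR5, the targeted gene, had an authors' mean of 1143 over both groups, which does not show its silencing.

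The promoters shown here are those on which the sequence features turn. Each is 300 bases from RefSeq (GRCh38.p14), 250 before the start site and 50 after it, read 5′ to 3′ on the strand of the gene. Capitals mark matches to E2F letters, to CHR letters and to the CCAAT box, each searched on both strands. The E2F letters are TTCCCGC in the classical form, with TTGGCGC as the other common form and both TTGCCGC and also TTCGCGC as mixed forms. The CHR letters are TTTGAA, and the CCAAT box is its own name. BLM (chr15:90717096-90717395, plus strand) has the most E2F matches of the members, CLSPN (chr1:35769929-35770228, minus strand) has an E2F match at its start below 3 CCAAT boxes, and EME1 (chr17:50372979-50373278, plus strand) starts 45 bases from the coding gene MRPL27 on the other strand.
BLM: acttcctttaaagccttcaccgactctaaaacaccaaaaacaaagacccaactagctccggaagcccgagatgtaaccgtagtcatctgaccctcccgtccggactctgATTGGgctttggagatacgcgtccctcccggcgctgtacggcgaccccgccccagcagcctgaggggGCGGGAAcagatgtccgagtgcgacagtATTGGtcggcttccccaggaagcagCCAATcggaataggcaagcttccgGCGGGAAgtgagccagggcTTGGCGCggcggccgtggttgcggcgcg
CLSPN: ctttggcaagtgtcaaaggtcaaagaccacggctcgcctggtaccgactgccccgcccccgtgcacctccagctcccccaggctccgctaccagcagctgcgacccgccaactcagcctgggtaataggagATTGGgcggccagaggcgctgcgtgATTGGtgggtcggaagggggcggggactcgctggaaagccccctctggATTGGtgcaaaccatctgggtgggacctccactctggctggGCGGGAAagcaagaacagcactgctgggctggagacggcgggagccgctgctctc
EME1: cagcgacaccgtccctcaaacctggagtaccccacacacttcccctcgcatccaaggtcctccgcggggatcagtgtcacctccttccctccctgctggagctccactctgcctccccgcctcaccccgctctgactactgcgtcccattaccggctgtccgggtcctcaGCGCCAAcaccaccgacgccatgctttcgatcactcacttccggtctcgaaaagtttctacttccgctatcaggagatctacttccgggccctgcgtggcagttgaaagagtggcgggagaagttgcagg

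All 42 genes were expressed in these cells, with authors' means from 196 (RAD51D) to 6072 (NBN) and a median of 830. An authors' mean of at least 100 was found for all 42 members, compared with 54.6% of the genes in the table. Of the 13548 genes with a mean of at least 10, 10815 reached 100. These means are not scaled by length, and the median transcript was 4677.5 bases for the members and 3310.5 for all genes. Per kb, the median of the members was 217 and that of the 13142 genes with a mean of at least 10 and a position was 208. Of the members, 22 lay above and 20 below that median, with XRCC3 (215) and BRCA1 (218) only just above it. Their lower and upper quartiles were 106 and 337 per kb, 3.17-fold apart, and those of all genes were 59.7 and 582, 9.74-fold apart. Only 4 members (NBN, RBBP8, CHEK2 and TOPBP1) lay above the upper quartile of all genes and 3 (XRCC2, BRIP1 and RAD51D) below the lower. Together the members hold 0.211% of the summed means and make up 0.212% of the genes. Where the group sat depended on the length and the genes it was ranked against. Per kb of coding sequence the members' median was 339 and that of protein-coding genes 527, with 11 members above it, and per kb of all annotated exons the medians were 108 and 128, with 19 above. With no filter on low values 36 members were above the median, and against genes with a mean of at least 100 it was 14. The quartiles of the members were closer together than those of all genes for each length, 3.88-fold against 9.91-fold per kb of all exons and 2.67-fold against 9.69-fold per coding kb. These all-gene quartiles take in genes with means from 10 up, whereas the lowest member mean was 196. The spread was not compared against genes with a mean of at least 100, so it is not known how far low means widen it.

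**Figure D1:**
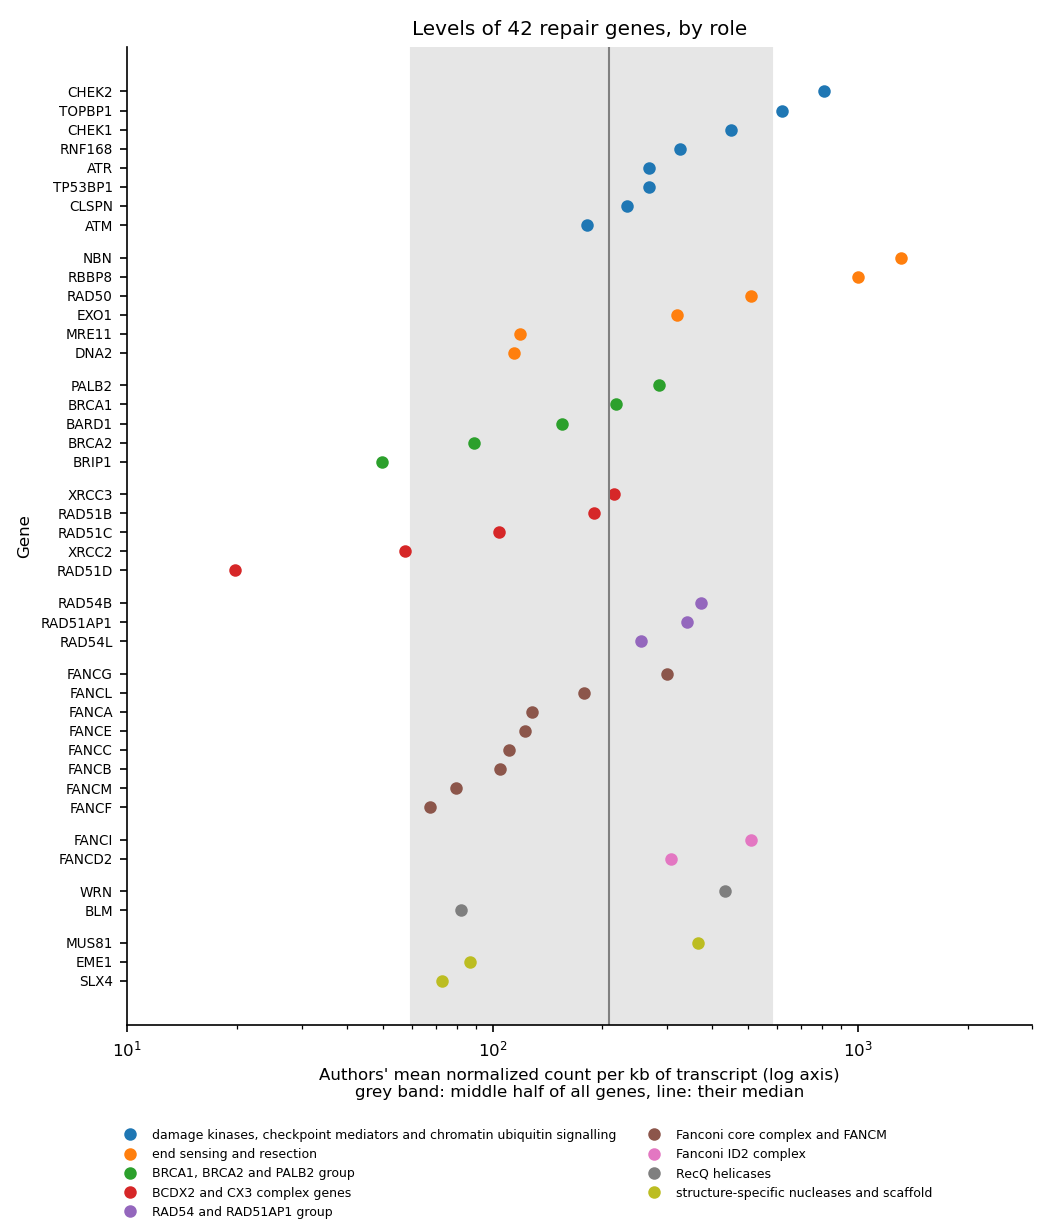
Level of each of the 42 genes, as the authors' mean normalized count per kb of transcript on a log axis, grouped and coloured by role, with a grey band from the lower to the upper quartile of all genes with a mean of at least 10 (59.7 to 582) and a line at their median (208). Each point is a mean over 6 libraries with no error in the table, and damage kinases and mediators lie mostly right of the line, Fanconi core genes mostly left of it.

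**Figure D2:**
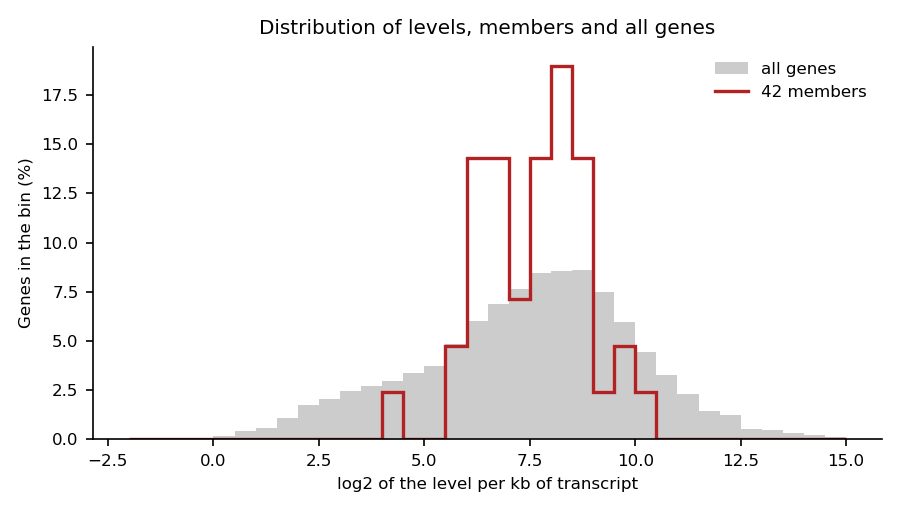
Share of genes (%) in bins of the log2 level per kb of transcript, for all 13142 genes (grey) and for the 42 members (red line). The members fall within the broad middle of the distribution, and their tails are shorter than those of all genes.

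Of the damage kinases and their mediators, 7 of 8 were above the median. CHEK2, the kinase that ATM activates at breaks, was at 806 per kb, the highest of the 8 on this scale. Per coding kb CHEK1 (1301) and RNF168 (1021) lay above CHEK2 (913), and per kb of all exons TOPBP1 (486) lay above CHEK2 (331). CHEK2 has 7 named pseudogenes in the annotation, so reads of CHEK2 are not told apart from them with certainty. The same limit holds for RBBP8, RAD51AP1, FANCD2, BRCA1 and MRE11, each with 1 named pseudogene. TOPBP1, which activates ATR, was at 618, and CHEK1, the kinase downstream of ATR, was at 450. ATR itself was at 269 and ATM, which signals double-strand breaks, at 181. CHEK2 was thus 4.45-fold above ATM and CHEK1 1.67-fold above ATR, and per coding kb these ratios were 3.58 and 4.70, and per kb of all exons 5.55 and 4.12. RNF168, the ubiquitin ligase that marks histone H2A around breaks, was at 327, TP53BP1, which binds that mark and limits resection, at 268, and CLSPN, the adaptor between ATR and CHEK1, at 233. Per kb of coding sequence, 4 of these 8 genes lay above the median.

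End sensing and resection genes spanned an 11.5-fold range per kb. NBN, the regulatory subunit of the MRE11 complex, was at 1314 per kb, the highest of the 42 members per kb of transcript and per coding kb but the 8th per kb of all exons, where RBBP8 was highest. Its partner RAD50, the ATPase that tethers ends, was at 511, although 76.9% of its annotated exonic bases are shared with another gene on the same strand. MRE11, the nuclease, was at 119, so the genes for the subunits of a single complex differed up to 11-fold in level per kb. The MRE11 transcript used is 6841 bases long with a coding length of 2124, and per coding kb MRE11 was at 384 and NBN at 2685, a 7-fold difference. Per kb of all exons the difference was 2.95-fold, with NBN at 313 and MRE11 at 106, and RAD50 (400) lay above NBN. RBBP8 (CtIP), which starts resection, was at 1000, and the long-range nucleases EXO1 and DNA2 were at 321 and 114.

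Of the 5 genes of the BRCA1 and BRCA2 axis, 2 were above the median of all genes and 3 below it. PALB2, the bridge between the BRCA proteins, was at 286 per kb and BRCA1 at 218. BRCA1, at percentile 51, lay too close to the median for its side to be certain. BARD1, the obligate partner of BRCA1 in its ubiquitin ligase, was at 155. BRCA2, the central mediator of strand exchange, was at 89.0, and BRIP1, a helicase that binds BRCA1, was at 49.9. None of the 5 reached the median when coding length was used, and PALB2 alone did per kb of all exons.

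RAD51B, RAD51C, RAD51D, XRCC2 and XRCC3 encode related proteins that form the small BCDX2 and CX3 complexes of recombination, and 4 of the 5 genes lay below the median. XRCC3 was at 215 per kb, RAD51B at 190, RAD51C at 104, XRCC2 at 57.6 and RAD51D at 19.7. XRCC3, at percentile 50.6 by transcript length and 50.2 by coding length, lay too close to the median for its side to be certain. The value of RAD51D rests on its transcript model of 9966 bases, of which 984 are coding. Per coding kb RAD51D was at 199, RAD51C at 237, RAD51B at 281, XRCC2 at 327 and XRCC3 at 531, so the order of the 5 changed and RAD51D moved from percentile 12.8 to 28.8. For XRCC3, 76.7% of annotated exonic bases lie opposite KLC1, and the strand setting of the counting is not given in the sources used here. RAD54B and RAD54L, DNA translocases of recombination, were at 371 and 255 per kb of transcript, and RAD51AP1, an accessory factor of strand exchange, was at 340, all above these 5. Per coding kb RAD54B (418) and RAD54L (350) lay below XRCC3. In RAD54B, 66.0% of exonic bases are shared with FSBP on the same strand, so its level may include reads of that gene.

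FANCI and FANCD2, which form the clamp that is ubiquitylated at crosslinks, were at 511 and 309 per kb, both above the median. Of the 8 genes of the core complex and its anchor FANCM, 7 were below it. FANCG was highest at 301, and FANCL, the ubiquitin ligase subunit, was at 178. FANCA, FANCE, FANCC and FANCB lay close together at 128, 122, 111 and 105, FANCM was at 79.5 and FANCF, an intronless gene, at 67.3. By coding length none of the 8 reached the median, and of FANCI and FANCD2 only FANCI did. FANCD2, at 362 per coding kb, then lay below FANCG at 413. Per kb of all exons FANCG (139), FANCI (135) and FANCD2 (133) lay too close together to be ranked.

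Of the RecQ helicases, WRN was at 433 and BLM, which dissolves double Holliday junctions, at 82.2 per kb. Of the nucleases that cut joined molecules, MUS81 was at 365, its partner EME1 at 86.9 and the scaffold SLX4 at 72.5. By coding length WRN was 7.53-fold above BLM and MUS81 4.40-fold above EME1, compared with 5.26-fold and 4.20-fold by transcript length and 7.29-fold and 2.57-fold per kb of all exons.

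**Figure D3:**
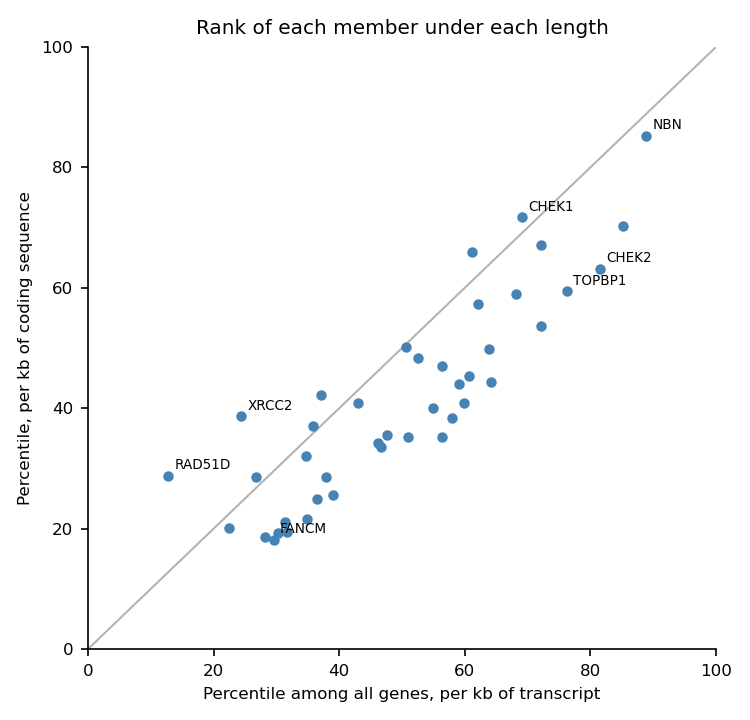
Percentile of each member by its level per kb of transcript among all genes (x axis). The y axis gives its percentile per kb of coding sequence, among those of the genes that have a coding sequence. The axes thus rank against different sets of genes. A line marks equal rank, with 35 members below it and 7 above it. RAD51D and XRCC2, whose transcripts are long for their coding sequence, move up the most.

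A further 58 genes of the same pathways were listed as context and 56 could be given a level, all with a mean of at least 10. Of these, 34 (60.7%) lay above the median of all genes, compared with 52.4% of the members, and their median was 321 per kb of transcript. The context genes were not ranked by another length or against another set of genes, although the share of the members depended on both. Among 15 genes for RPA and mediators, 7 were above the median, from SWSAP1 at 32.4 to SEM1, a small BRCA2-binding protein, at 4510. Among the 10 genes of the checkpoint clamp and kinase partners, 6 were above it, from ETAA1 (61.4) to RHNO1 (472). For chromatin response and end protection the count was 9 of 12, from SHLD1 (55.6) to MAD2L2 (1156). For Fanconi accessory genes it was 7 of 12, from CENPS (20.2) to USP1 (2447), the enzyme that removes ubiquitin from FANCD2 and FANCI. For Holliday junction processing it was 5 of 7, from GEN1 (48.1) to RECQL (968). Levels of these other pathway genes thus spread on both sides of the all-gene median, as did those of the members.

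Many of the members start back to back with another gene. Of the 42, 20 (47.6%) have a gene on the opposite strand whose start lies within 1000 bases of theirs, compared with 32.5% of the 13142 genes. For a protein-coding neighbour the counts were 11 members (26.2%) and 14.8% of genes. Of the 21 pairs, 19 are divergent, and 13 have a neighbour with a row in the table. At a mean of at least 10 there were 10 such pairs, in 5 of which the neighbour had the higher level per kb. EME1 and MRPL27, a mitochondrial ribosomal protein gene, have starts 45 bases apart and levels of 86.9 and 861. CHEK2 starts 219 bases from HSCB, an iron-sulfur cluster co-chaperone, with levels of 806 and 449. BRCA1 and the noncoding NBR2 are 187 bases apart at 218 and 71.9, and ATM and NPAT, the histone gene activator, 429 bases apart at 181 and 222. MRE11 and ANKRD49 were at 119 and 150, PALB2 and DCTN5 at 286 and 202, and RAD51AP1 and C12orf4 at 340 and 217. FANCB was at 105 beside MOSPD2 at 316, and XRCC3 at 215 beside ZFYVE21 at 409. WRN was at 433 and PURG, 454 bases away, at 26.7. The order within some pairs depended on length. By means not scaled by length DCTN5 (2208) lay above PALB2 (1147) and C12orf4 (827) above RAD51AP1 (718). In the same way ATM (2338) lay above NPAT (1356.5) and MRE11 (814.5) above ANKRD49 (287). The other pairs at a mean of at least 10 kept their order. BRCA2, RAD51C and BLM stand beside ZAR1L, TEX14 and CRTC3-AS1, which had authors' means of 0.51, 2.72 and 5.29. A shared start region thus went with neighbour levels from far below to far above that of the repair gene.

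**Figure D4:**
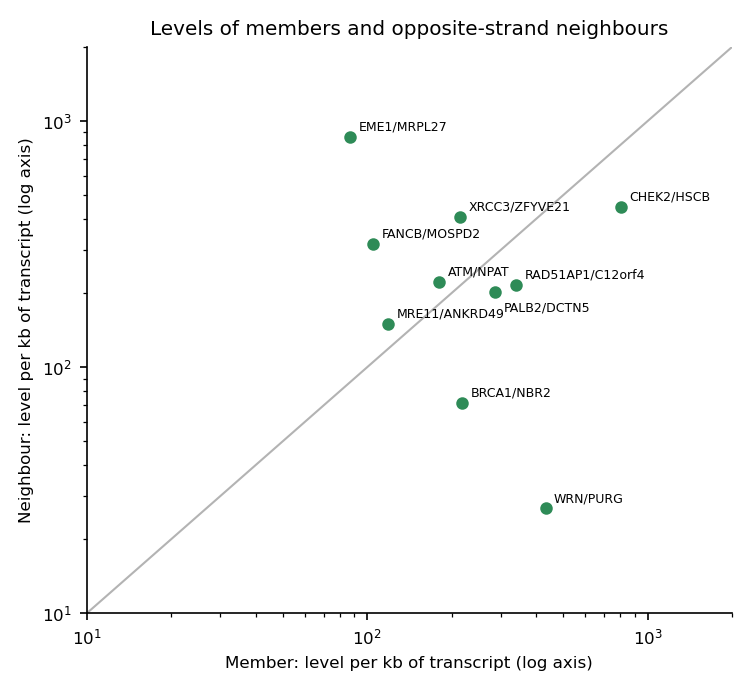
Level per kb of transcript of 10 members (x axis) and of the opposite-strand neighbour whose start lies within 1000 bases (y axis), both on log axes, with the line of equal level. Of the 10 pairs, 5 lie above the line, EME1 with MRPL27 farthest above, and WRN with PURG farthest below.

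A promoter window at the transcript's start was found for 34 of the 42 members. E2F proteins switch on genes of S phase, and E2F letters were present in 20 of the 34 windows (58.8%), compared with 21.7% of 9849 windows of genes with a mean of at least 10 and 19.4% of 12732 windows of all genes with a position. The median GC content was 64.5% in the members' windows and 66.3% in the 9849. The members with a match were BRCA1, BARD1, BRIP1, RAD51D, RAD51AP1, RAD54L, XRCC2, XRCC3, BLM, EXO1, EME1, TOPBP1, CLSPN and 7 of the 9 Fanconi genes with a window (FANCA, FANCC, FANCD2, FANCE, FANCF, FANCG and FANCL). The centre of a match lay within 50 bases of the start in 16 members (47.1%) and in 7.98% of the 9849 windows, a distance chosen after the positions had been seen. At least 2 matches were found in 4 of the 34 members (TOPBP1, BLM, FANCA and FANCC) and in 3.37% of windows. The 2 matches in TOPBP1 overlap, whereas those in BLM, FANCA and FANCC do not. The CCAAT box, a site of NF-Y, was found in 15 windows (44.1%, and 37.7% of the 9849), and the CHR letters, which mark many genes of late cell cycle, in 3 (8.82% and 8.84%), those of ATM, BRIP1 and FANCC. In 8 windows (ATR, BRCA2, RAD51C, RAD50, RBBP8, FANCB, SLX4 and RNF168) none of these letters was found. Members with E2F letters had a median level of 166 per kb of transcript and the 14 without 225, and members with no window are in neither set. Per coding kb the middle genes with the letters were FANCC (303) and XRCC2 (327). Those without were ATR (277) and PALB2 (322), so the lower level with E2F letters was not kept on that scale. These matches are descriptions of the letters and were not tested for binding.

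**Figure D5:**
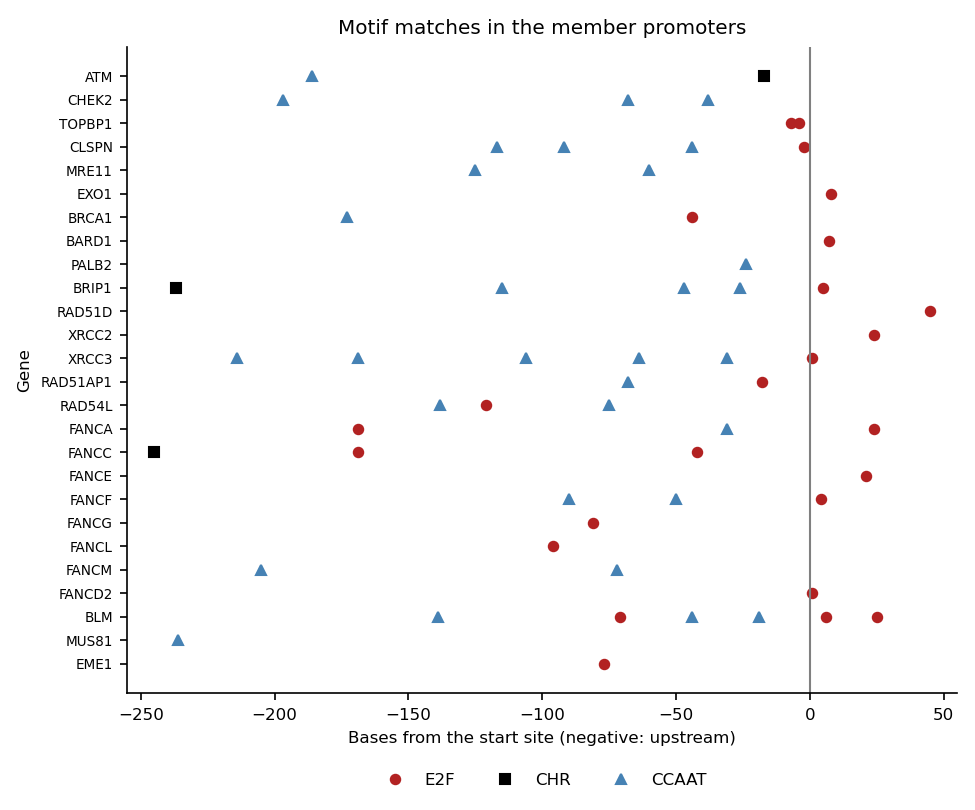
Position of each motif match in the 26 member promoters that have any, in bases from the start site (0, grey line; negative is upstream), with E2F letters as red circles, CHR letters as black squares and CCAAT boxes as blue triangles. E2F matches gather near the start and CCAAT boxes lie upstream of it.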

How the data were processed

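Total RNA from triplicate cultures was made into stranded poly(A) libraries (TruSeq Stranded mRNA). By the methods and the submitters' processing notes, the authors aligned the reads to GRCh38 with STAR and normalized feature counts with DESeq2. The counter, its strand setting, the annotation and the filter on low values are not given in the sources used here. The deposited mean normalized count is a signal value, the mean over all 6 libraries by the authors, not scaled by length. The 5 other columns hold the authors' fold change of DOX against vehicle, its error, statistic and p-values, and were not used. No column of a single library was in the table, so the planned count test did not apply and library depth is unknown.

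Of 19792 symbols, 17575 matched GENCODE 44 (GRCh38) directly, 192 after ignoring letter case and 703 through RefSeq synonyms, and 1322 had no position. The level per kb is the authors' mean divided by the MANE Select or, where there is none, the canonical transcript length. Percentiles are among the 13142 genes with a position and a mean of at least 10. Per coding kb they are among those of these genes that have a coding sequence. Of the RefSeq windows of a gene, the nearest to the transcript's start within 50 bases was taken. In 34 of 34 member windows the bases at the start matched the transcript. All members were named, by role. Some listed context genes are not reported here. The members, lists and motifs were chosen with earlier results of these data known. Motif and exon routines were tested on simulated data. No statistical test was made, since genes are not replicates. Computation used Python 3.11.15, numpy 2.4.6, pandas 2.3.3 and matplotlib 3.10.9. The alternatives were union exon length, no length scaling, other filters, protein-coding genes alone, other distances and a narrower window, with coding length added after seeing the data.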

Additional observations from a re-analysis of the deposited data

How the results depend on the processing

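How many members lay above the median of all genes depended on which genes were ranked. Of 42, it was 22 as reported, 36 with no filter on low values and 14 against genes with a mean of at least 100, since those choices of genes move the all-gene median from 208 to 80.6 and to 302 per kb. With coding length against protein-coding genes it was 11, a choice made after seeing the data. It was 19 with the union of exons, 25 with no length scaling and 20 against protein-coding genes. The median level of the members was 217 per kb of transcript, 108 per kb of all exons and 339 per coding kb, beside 208, 128 and 527 for the genes they were ranked among. Opposite-strand neighbours were found for 17 members within 500 bases and 22 within 2000. In the 150 bases upstream of the start, E2F letters were found in 9 of 34 windows (26.5%, and 12.6% of windows of genes with a mean of at least 10) in place of 20, CHR letters in 1 in place of 3 and CCAAT in 12 in place of 15. The counts of E2F letters therefore rest in large part on bases at or after the start. Each member lost in the narrower window had a match across or after the start, and FANCA had another farther upstream. No paired analysis was possible because the table has no column of a single library, and for the same reason no replicate could be left out and DESeq2 or edgeR was not run on counts.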
